A study of Mus musculus with 4 samples.

Results

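Cytochrome P450 genes were described in the ureter of male mice with and without the miR-143/145 gene cluster, which encodes a pair of microRNAs of smooth muscle. Members were taken by gene symbol (Cyp, digits, letters, digits), without the retinoic acid group Cyp26, and 79 of 19296 measured genes met this rule, in 13 families. Each member had 1 probe set, the group of probes that reads 1 gene, and although probe sets were selected on their brightness, the mean of the 4 arrays, this choice changed no member. P450 genes were proposed for description with the knockout and wild type values of these arrays in view. RNA came from 2 mice of genotype miR-143/145+/+ and 2 of genotype miR-143/145-/-, all on a 129Sv/C57BL6 mix background, with 1 whole-transcript array per mouse and 500 ng of RNA per array. The miR-143/145+/+ mice (wild type) had reached 4.5 months and had normal kidneys. The miR-143/145-/- mice (knockout) had reached 2.5 months and had hydronephrosis, in which urine backs up and distends the kidney. In any difference given here, the effects of genotype, of age and of the state of the kidney cannot be told apart. The labels do not state what driver or cell type, if any, limits the deletion.

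P450 enzymes hold a heme group and use electrons from NADPH, passed on by a reductase in the endoplasmic reticulum or by a ferredoxin in mitochondria, to insert oxygen into their substrates. Members of families 1, 2 and 3 act mostly on foreign compounds and on some steroids and fatty acids. Family 4 hydroxylates fatty acids and eicosanoids. Most of the remaining families make or break down steroids, bile acids, oxysterols and vitamin D. Most of these genes are known for their levels in liver and kidney, and several are also expressed in fat, epithelia and smooth muscle tissues.

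The promoters of 4 P450 genes are shown for context. Cyp2b10, Cyp1a1 and Cyp2r1 are among the genes that differed between the genotypes, and Cyp2e1, of liver and fat, is not. The stretches shown are the 150 bases before the transcription start in RefSeq (GRCm38.p6), and capitals mark the motifs searched. The windows are chr7:25897508-25897657 on the plus strand for Cyp2b10, chr9:57697463-57697612 on the plus strand for Cyp1a1, chr7:114562973-114563122 on the minus strand for Cyp2r1 and chr7:140763669-140763818 on the plus strand for Cyp2e1.
Cyp2b10: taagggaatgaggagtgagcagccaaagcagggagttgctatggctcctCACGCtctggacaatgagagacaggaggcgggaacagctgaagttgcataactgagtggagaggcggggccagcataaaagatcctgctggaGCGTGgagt
Cyp1a1: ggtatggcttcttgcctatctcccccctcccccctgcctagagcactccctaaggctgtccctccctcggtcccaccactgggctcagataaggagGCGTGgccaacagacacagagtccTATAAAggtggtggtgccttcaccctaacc
Cyp2r1: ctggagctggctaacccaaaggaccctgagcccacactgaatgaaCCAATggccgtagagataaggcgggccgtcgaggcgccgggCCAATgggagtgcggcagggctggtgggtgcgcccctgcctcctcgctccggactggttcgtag
Cyp2e1: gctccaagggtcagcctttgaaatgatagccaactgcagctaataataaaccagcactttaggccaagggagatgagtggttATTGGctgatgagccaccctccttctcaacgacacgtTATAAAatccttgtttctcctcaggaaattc

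Both strands were searched for 4 motifs, none of which contains another. TATAAA is the core of the TATA box. The CCAAT box was searched by its letters. The aryl hydrocarbon receptor binds around the core GCGTG. Nuclear receptors bind hexamers such as AGGTCA. The TATA box began 30 bases before the start in Cyp1a1 and 31 bases before it in Cyp2e1. Cyp2r1 held CCAAT at 105 and 64 bases before its start and no TATAAA within 250 bases. GCGTG stood 54 bases before the start of Cyp1a1, and at 9 and, on the opposite strand, 101 bases before that of Cyp2b10. RefSeq windows of 250 bases matched 60 of the 79 members, with 68 start sites. TATAAA was in 22 of these windows (32.4%) against 12.4% of all 32851 windows, CCAAT in 31 (45.6%) against 33.8%, GCGTG in 15 (22.1%) against 28.2% and AGGTCA in 16 (23.5%) against 14.0%. Windows of neighbouring paralogs share sequence, so they do not count as independent, and a match is a description of letters only.

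The deleted genes read lower in knockout ureter, with Mir145a at log2 8.28 and 8.42 in wild type against 4.60 and 5.02 in knockout. The array medians lay between 7.84 and 7.94 over the genes, and a background level of log2 6.58 was set at the 95th percentile of 1024 olfactory receptor genes, which ureter is not known to use. In the same comparison 459 of 19296 genes passed the test, 367 upward and 92 downward in knockout. After median centring of each array, which moves the median of all genes from -0.02 to -0.10, the split was 309 and 317. Dim genes read lower in knockout as a whole: among the 5069 genes not above background, the genotypes did not overlap with lower knockout values for 2168 and with higher ones for 423. In bulk tissue, fewer cells of a type and less RNA per cell cannot be told apart.

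Of the 79 P450 genes, 30 lay above the background level in at least 1 genotype and 25 in both, while 49 did not. The measured levels are a description, and since each probe set has its own brightness, levels are not ranked between genes. Just above the limit were Cyp4f14 at 6.63 and Cyp2w1 at 6.78 in their higher genotype, and just below it Cyp2c66 at 6.57 and Cyp2c37 at 6.54. The 13 Cyp2c genes, which include arachidonic acid epoxygenases of liver and kidney, had genotype means below background throughout. Of 6 Cyp3a genes, the main drug-metabolizing P450s of liver, 1 was above it. By contrast 6 of 8 Cyp4f genes, 4 of 9 Cyp2d genes and 3 of 6 Cyp2j genes were above it. Of the last, Cyp2j5 was above it through knockout replicate 1 alone, at 8.82.

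**Figure D1:**
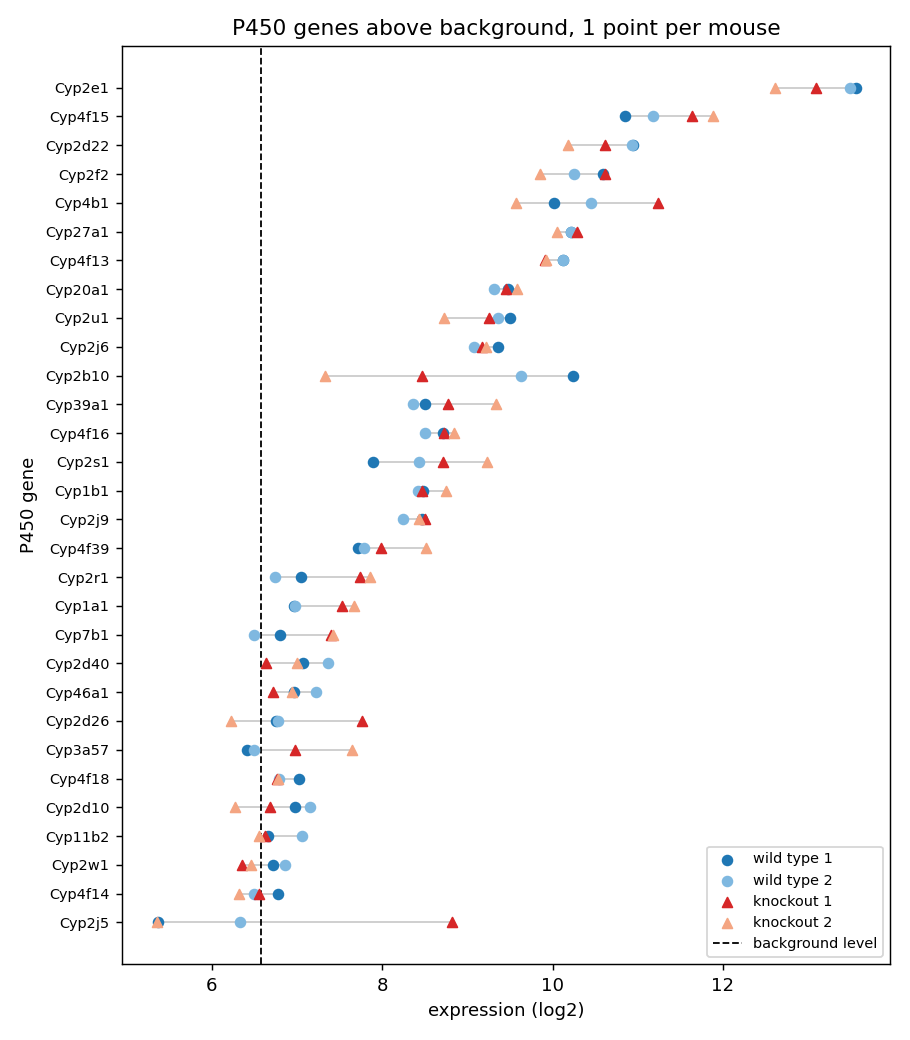
Log2 expression (horizontal axis) of the 30 P450 genes above the background level in at least 1 genotype, with 1 point per mouse, circles for wild type, triangles for knockout and a dashed line at the background level of 6.58. Cyp2b10 and Cyp2j5 are spread widest, the former with all wild type points above the knockout points and the latter with knockout replicate 1 at 8.82 apart from the other 3 mice.

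Knockout ureter differed from wild type in 5 P450 genes at a limma adjusted p under 0.05 over all genes. The vitamin D hydroxylase gene Cyp2r1, the oxysterol hydroxylase gene Cyp7b1 and Cyp1a1, a P450 induced by the aryl hydrocarbon receptor, rose by 0.90, 0.76 and 0.63 on the log2 scale. Cyp2b10, a drug-metabolizing P450 of the phenobarbital-inducible group, and Cyp17a1, a steroid hydroxylase, passed with lower values. These are 6.33% of the 79 members, where 2.38% of all genes passed; of all genes 1.90% passed as higher and 0.477% as lower. Cyp2b10 was a known result when the P450 genes were chosen, so this share is no evidence about the family. The median difference over the 79 genes was -0.06 (all genes -0.02).

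**Figure D2:**
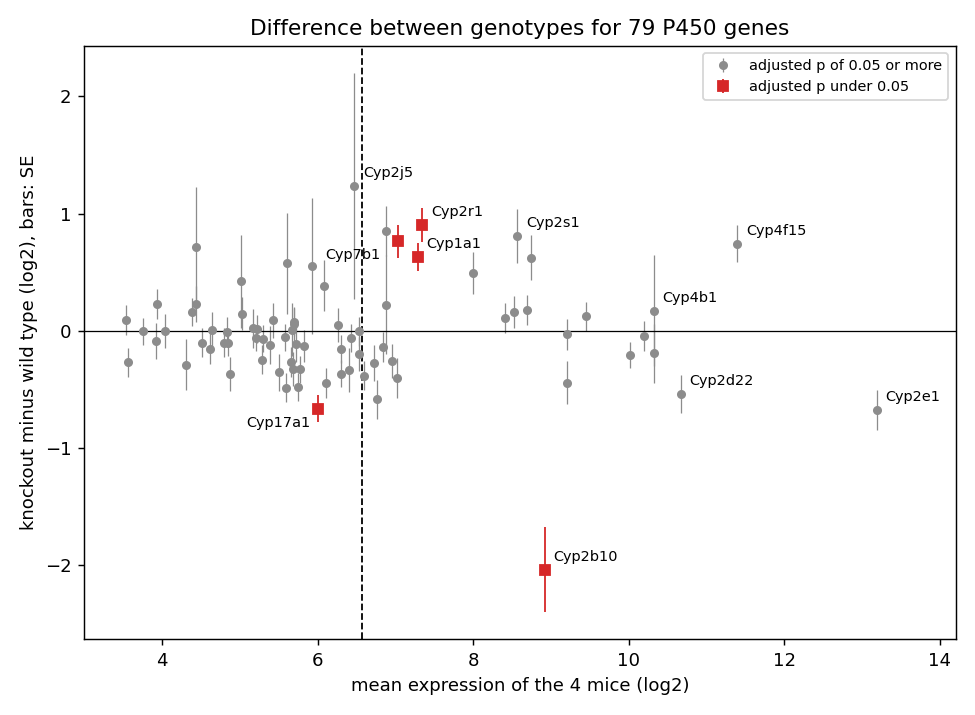
Knockout minus wild type (log2, vertical axis, bars are the moderated SE) against the mean of the 4 mice (log2, horizontal axis) for the 79 P450 genes, with the 5 that passed as red squares and the background level as a dashed line. Cyp2b10 lies alone at -2.04, and the 3 genes that rose lie between 0.63 and 0.90.

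Cyp2b10 measured 10.24 and 9.63 in the wild type mice and 8.47 and 7.33 in the knockout mice. Wild type lay wholly above knockout, and the knockout mice were 1.14 apart. The gene fell by 2.04 (SE 0.36, adjusted p = 0.0454), or 4.11-fold, and of 19296 genes it was the 6th in order of falls by the measured difference. With knockout replicate 1 left out the difference was -2.61, and with knockout replicate 2 left out it was -1.47, both past the threshold. With wild type replicate 1 or 2 left out it was -1.73 and -2.34 without passing (adjusted p = 0.185 and 0.221). The call was also lost after quantile normalization was repeated (adjusted p = 0.0532), with robust eBayes (0.110) and with every probe set tested on its own (0.0526).

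The other 4 Cyp2b genes did not pass. Cyp2b19, a P450 of keratinizing epithelium, measured 5.80 and 5.87 in wild type against 5.46 and 5.25 in knockout, below background in every mouse (adjusted p = 0.0802). Cyp2b9, Cyp2b13 and Cyp2b23 lay below background as well, with differences of 0.06, -0.10 and -0.06. The Cyp2b genes are close paralogs, and how far probes of one read the RNA of another was not tested. Of the P450 neighbours in the genome none other passed. Cyp2f2, a P450 known from airway epithelium, measured 10.60 and 10.25 in wild type against 10.62 and 9.85 in knockout, with overlapping genotypes. On the other side Cyp2s1, an epithelial P450, measured 7.89 and 8.43 in wild type against 8.71 and 9.24 in knockout. These values did not overlap and differed by 0.81 (SE 0.23), without passing (adjusted p = 0.0925).

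**Figure D3:**
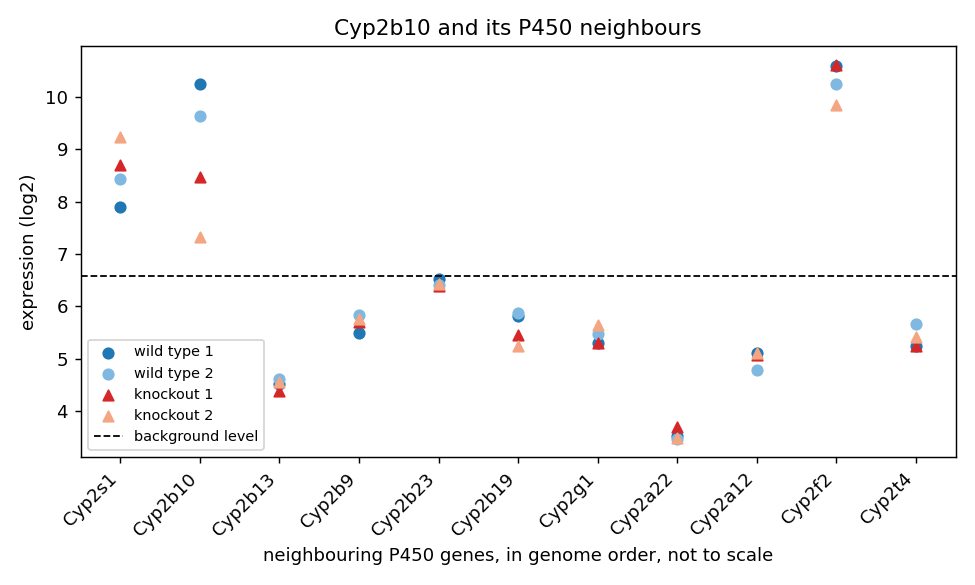
Log2 expression (vertical axis) of Cyp2b10 and the 10 other P450 members that neighbour it, in genome order and not to scale, with 1 point per mouse and a dashed line at the background level. Cyp2s1, Cyp2b10 and Cyp2f2 are above background, and the knockout points are the lower ones for Cyp2b10 and the higher ones for Cyp2s1.

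Among genes for vitamin D and sterols, Cyp2r1, which makes 25-hydroxyvitamin D, measured 7.05 and 6.74 in wild type against 7.73 and 7.86 in knockout. It rose 1.87-fold (SE 0.14 on the log2 scale, adjusted p = 0.0368), with no overlap between genotypes. Cyp27b1, which makes the active hormone from that product, stayed below background at 6.21 and 6.44 in wild type against 5.90 and 5.87 in knockout (adjusted p = 0.0960). The vitamin D receptor gene Vdr measured 6.89 in both wild type mice against 7.92 and 7.53 in the knockout mice, and rose by 0.83 (adjusted p = 0.0486). Its call was lost after quantile normalization was repeated (adjusted p = 0.0536), with median centring (0.0504), with every probe set tested on its own (0.0546) and with array weights (0.0509), and that of Cyp2r1 with the first of these (0.0614).

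Cyp7b1, which hydroxylates oxysterols and some steroids, measured 6.80 and 6.50 in wild type against 7.40 and 7.42 in knockout. It rose 1.70-fold (SE 0.14, adjusted p = 0.0482), and both knockout mice lay above both wild type mice. Cyp39a1, which hydroxylates 24-hydroxycholesterol, measured 8.50 and 8.36 in wild type against 8.77 and 9.34 in knockout, again without overlap, but did not pass (adjusted p = 0.106). Cyp27a1, the mitochondrial sterol hydroxylase, stayed between 10.05 and 10.28 in all 4 mice, with overlapping genotypes. Cyp46a1, a cholesterol hydroxylase known from neurons, differed by -0.26 (adjusted p = 0.289). Cyp7a1, the rate-limiting enzyme of bile acid synthesis, and Cyp8b1 lay below background in every mouse. The call of Cyp7b1 was lost after quantile normalization was repeated (adjusted p = 0.0618), with median centring (0.0519) and with every probe set tested on its own (0.0543).

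Of 5 steroid hormone synthesis genes, Cyp17a1 was the one that passed. It measured 6.28 and 6.41 in wild type against 5.68 and 5.67 in knockout, a difference of -0.66 (SE 0.12, adjusted p = 0.0447) below the background level in every mouse, so no fold is given. Cyp11a1, which starts steroid synthesis from cholesterol, Cyp11b1 and Cyp21a1 also lay below background, with differences of -0.27, -0.32 and -0.37, and none passed. Cyp11b2, the aldosterone synthase gene, measured 6.66 and 7.05 in wild type against 6.62 and 6.55 in knockout (adjusted p = 0.295). All 5 genes had lower knockout values without overlap, where 32.0% of all genes did. Of all genes not above background, the range in which 4 of the 5 lay, 42.8% did. Among 8 tested markers of steroidogenic cells 0 passed limma, and Hsd3b1 stayed at or below 4.58. At an unadjusted p under 0.05, 1 was higher and 3 were lower, where 12.7% and 13.8% of all genes were. The marker Mrap, which fat cells also express, measured 10.48 and 10.36 in wild type against 9.73 and 9.00 in knockout. The part of such cells in the values of Cyp17a1 was not tested. Its call was lost after quantile normalization was repeated (adjusted p = 0.0698).

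In family 1, Cyp1a1 measured 6.97 in both wild type mice against 7.53 and 7.67 in the knockout mice. It rose 1.55-fold (SE 0.12, adjusted p = 0.0495), a call close to the threshold. Of the settings that kept all mice and pooled the variance, 5 lost it: repeated quantile normalization (adjusted p = 0.0542), median centring (0.0520), every probe set on its own (0.0550), an intensity trend (0.0513) and array weights (0.0513). Ahrr, the repressor gene that the aryl hydrocarbon receptor induces, rose from 6.29 and 6.72 in wild type to 7.40 and 7.62 in knockout (SE of the difference 0.17, adjusted p = 0.0416). The receptor gene itself, Ahr, was 0.64 higher in knockout, without overlap between genotypes and without passing (adjusted p = 0.0806). Cyp1b1, a further P450 of this receptor, measured 8.48 and 8.42 in wild type against 8.47 and 8.75 in knockout, with overlapping genotypes. Cyp1a2, mostly a liver gene, stayed below background.

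With wild type replicate 1 or replicate 2 left out, limma passed 0 of 19296 genes, so none of the 5 P450 calls held with a single wild type mouse. At an unadjusted p under 0.05 those fits gave 4253 and 3079 genes. Without wild type replicate 1 the adjusted p of all 5 lay between 0.183 and 0.185, and without wild type replicate 2 between 0.216 and 0.230. Cyp1a1 and Cyp17a1 also missed the threshold without knockout replicate 2 (adjusted p = 0.0972 and 0.0598). With no pooling of the variance over genes, the adjusted p of the 5 genes was 0.344 to 0.392.

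Several further family 2 genes had lower knockout values without overlap and did not pass. Cyp2e1, the ethanol-oxidizing P450 of liver and fat, measured 13.56 and 13.49 in wild type against 13.09 and 12.61 in knockout (adjusted p = 0.0767). Cyp2d22 measured 10.94 and 10.93 in wild type against 10.61 and 10.18 in knockout (adjusted p = 0.101). Cyp2u1, a fatty acid hydroxylase, measured 9.50 and 9.36 in wild type against 9.25 and 8.73 in knockout (adjusted p = 0.179). In these 3 genes, as in Cyp2b10, wild type replicate 1 read highest and knockout replicate 2 lowest.

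The means of the adipocyte markers, of the macrophage markers and of the redox partner and heme genes ran in the same order of mice. The mean of 13 tested adipocyte markers was 13.01 and 12.90 in wild type against 12.70 and 12.23 in knockout. Of these 0 passed limma, and 9 had an unadjusted p under 0.05 with lower values, as did 13.8% of all genes. Knockout replicate 2 was lowest for all 13. This order of the 4 mice was that of 7 P450 genes (Cyp2e1, Cyp2d22, Cyp2u1, Cyp2b10 and the dim Cyp2d13, Cyp4x1 and Cyp2c38). These were 8.86% of the P450 genes, beside 6.81% of all genes. Above background the shares were 13.3% of P450 genes (the first 4 named) and 7.81% of all genes. The macrophage mean was 9.03 and 9.01 in wild type against 8.94 and 8.87 in knockout. The part of fat or of macrophages in these 4 genes was not tested. Without knockout replicate 1 the lower values of Cyp2e1, Cyp2d22 and Cyp2u1 passed as well (adjusted p = 0.00557, 0.0145 and 0.0232), in a fit where a single knockout mouse is assumed to vary like the wild type mice. Without knockout replicate 2 their differences were -0.44, -0.32 and -0.18, and none passed (adjusted p = 0.186, 0.326 and 0.622).

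**Figure D4:**
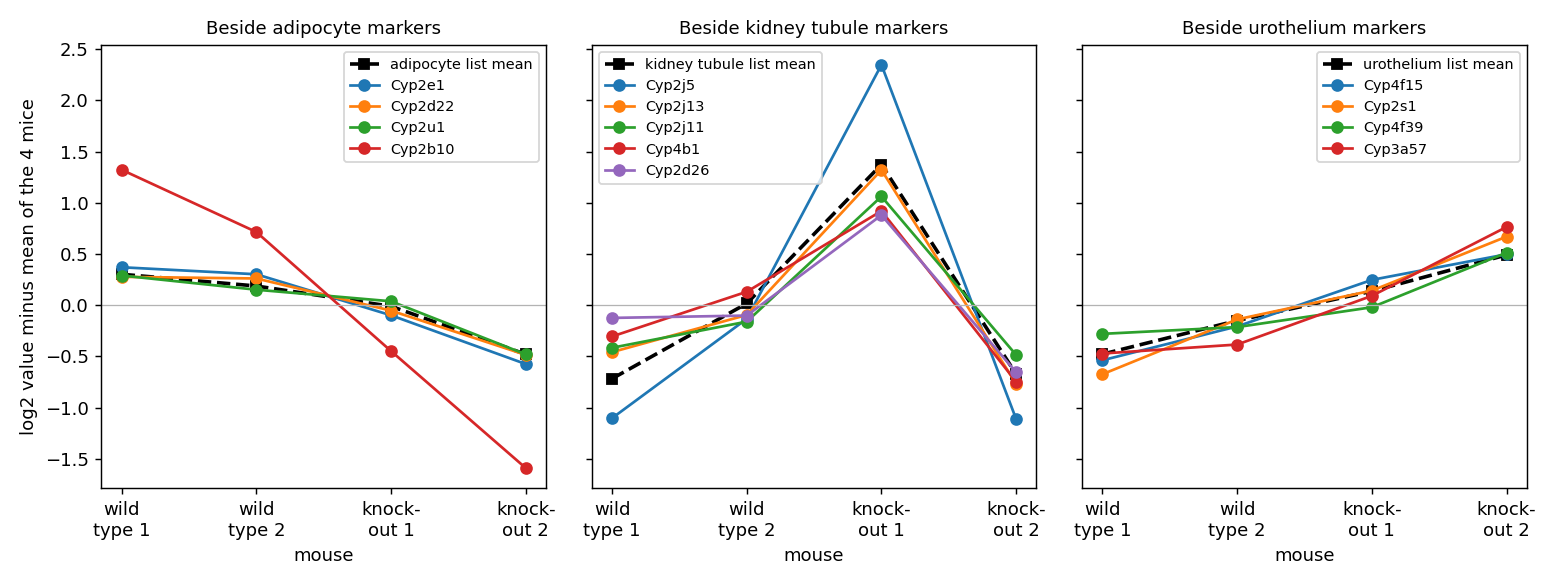
Log2 value minus the mean of the 4 mice (vertical axis) for each mouse (horizontal axis), for P450 genes in colour beside the mean of a marker list (black dashed); lines join the values of 1 gene or list and carry no order in time. Adipocyte markers and 4 genes are lowest in knockout replicate 2, kidney tubule markers and 5 genes are highest in knockout replicate 1, and urothelium markers and 4 genes are higher in both knockout mice. The genes drawn beside adipocyte and urothelium markers are among those with the order of mice of that list, so their likeness follows from the choice. Those drawn beside kidney tubule markers do not have the order of mice of that list.

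In the Cyp2d group, a large cluster of paralogs, 0 of 9 genes passed limma, and 3 had an unadjusted p under 0.05 with lower values, as did 13.8% of all genes. Cyp2d10 measured 6.97 and 7.15 in wild type against 6.68 and 6.27 in knockout (adjusted p = 0.0920). Cyp2d13 differed by -0.48 below background (adjusted p = 0.0729). Cyp2d40 differed by -0.40, with both knockout mice below both wild type mice (adjusted p = 0.189). For 5 of the 9 the knockout values were lower without overlap (32.0% of all genes), and for 0 they were higher (28.0% of all genes). Cyp2d26 behaved otherwise, at 6.75 and 6.78 in wild type but 7.76 and 6.22 in knockout, with wild type between the knockout mice.

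Several P450 genes read higher in 1 knockout mouse than in every other mouse. Cyp2j5, an arachidonic acid epoxygenase gene of kidney and liver, measured 5.37 and 6.34 in wild type, 8.82 in knockout replicate 1 and 5.36 in knockout replicate 2. Cyp2j13 measured 5.47 and 5.83 in wild type against 7.25 and 5.16 in knockout, and Cyp2j11 followed at 5.19 and 5.44 against 6.66 and 5.12. Cyp4b1, a family 4 enzyme of lung, kidney and bladder, measured 10.01 and 10.45 in wild type against 11.24 and 9.57 in knockout. Knockout replicate 1 was thus the highest of the mice in each of these genes, knockout replicate 2 the lowest, and the genotypes overlapped in all of them.

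The knockout mice were at least 1 apart on the log2 scale in 8 of 79 P450 genes (147 of 19296 genes), and the wild type mice in 0 (34 of 19296 genes). The 8 genes were Cyp2j5, Cyp2j13, Cyp4b1, Cyp4a31, Cyp2j11, Cyp2d26, Cyp2d12 and Cyp2b10. In the first 7 knockout replicate 1 read higher, as it did in Cyp2b10. Kidney tubule markers had a mean of 6.70 and 7.44 in wild type, 8.79 in knockout replicate 1 and 6.75 in knockout replicate 2. Knockout replicate 1 was the highest for 16 of the 17 markers (3341 of 19296 genes). Among them was Kap, an androgen-dependent gene of the proximal tubule, at 6.19 and 9.25 in wild type against 11.42 and 7.81 in knockout. The order of mice of the list mean was that of 2.25% of all genes. Of the P450 genes it was that of 5.06%, the dim Cyp2c54, Cyp2c50, Cyp3a44 and Cyp4a31, and of 0 above background. Cyp2j5, Cyp2j13, Cyp2j11, Cyp4b1 and Cyp2d26 were lowest in knockout replicate 2, where the list mean was lowest in wild type replicate 1. Of 14 hepatocyte markers 5 were above background, and the list mean was 6.34 and 6.50 in wild type against 6.20 and 6.19 in knockout. Alb, albumin, was below background in every mouse, between 6.28 and 6.51. The part of kidney RNA in the P450 values was not tested.

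Leaving out a knockout mouse changed which P450 genes passed. Without knockout replicate 2, 10 P450 genes were higher and 1 lower (436 and 133 of all genes), and the difference of Cyp2j5 was 2.97 (adjusted p = 0.000119), that of Cyp2j13 1.60 and that of Cyp4b1 1.01. Without knockout replicate 1, 8 were higher and 7 lower (1115 and 629 of all genes), and Cyp4b1 differed by -0.66. Cyp2j5, Cyp2j13 and Cyp4b1 passed in the fit that kept knockout replicate 1 as the single knockout mouse, and not with both knockout mice. Cyp4a12a and Cyp4a12b, male kidney genes whose symbols end in a letter and so fell outside the rule, read 9.26 and 8.60 in knockout replicate 1 and at most 6.38 and 6.27 in the other 3 mice.

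Of the 8 Cyp4f genes, fatty acid hydroxylases of family 4, all but Cyp4f18 lie in 1 cluster of the genome. None passed limma, and 2, Cyp4f15 and Cyp4f39, had an unadjusted p under 0.05, both higher in knockout, as had 12.7% of all genes. Cyp4f15 measured 10.85 and 11.18 in wild type against 11.64 and 11.89 in knockout, a difference of 0.74 (SE 0.16) that did not pass (adjusted p = 0.0581). It passed with a filter on dim genes (adjusted p = 0.0494) and with robust eBayes (0.0406). Cyp4f39, which hydroxylates very long fatty acids of the epithelial barrier, measured 7.72 and 7.79 in wild type against 7.98 and 8.51 in knockout (adjusted p = 0.146). Cyp4f16 differed by 0.18 and Cyp4f18, known from leukocytes, by -0.13. Cyp4f13 measured 10.12 in both wild type mice against 9.91 and 9.93 in knockout (adjusted p = 0.286). Values without overlap were higher in 3 and lower in 2 of the 8 Cyp4f genes, where 28.0% and 32.0% of all genes were.

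Urothelium markers were higher in both knockout mice beside some of these genes. The mean of 17 urothelium markers was 11.19 and 11.52 in wild type against 11.81 and 12.16 in knockout, all 17 were higher without overlap (28.0% of all genes), and 1, Trp63, passed. The call of Trp63 was lost after quantile normalization was repeated (adjusted p = 0.0657), with every probe set on its own (0.0547) and without knockout replicate 2 (0.0593). Fibroblast markers ran in the same order, at 10.52 and 10.57 in wild type against 11.11 and 11.28 in knockout. Of these 3 of 8 passed (Lum, Col1a1 and Col1a2), where 1.90% of all genes passed as higher. Repeated quantile normalization lost the calls of Col1a1 (adjusted p = 0.0641) and Col1a2 (0.0643), and that of Col1a2 was also lost with every probe set on its own (0.0517) and without knockout replicate 2 (0.0650). The order of mice was shared by Cyp4f15, Cyp2s1, Cyp4f39, Cyp1a1, Cyp3a57 and the dim Cyp2c65. These were 7.59% of the P450 genes, beside 9.91% of all genes. Above background the shares were 16.7% of P450 genes and 12.7% of all genes. Cyp3a57 was below background in wild type, at 6.41 and 6.49, and measured 6.97 and 7.64 in knockout, at least 1.66-fold higher without passing (adjusted p = 0.0750). The part of these cell types in the differences was not tested.

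A further 4 P450 genes above background did not pass. Cyp20a1, a P450 whose substrates are poorly known, measured 9.48 and 9.31 in wild type against 9.46 and 9.58 in knockout (adjusted p = 0.555). Cyp2j6 and Cyp2j9, further members of the epoxygenase group, differed by -0.03 and 0.11, with overlapping genotypes in both. Cyp2w1 was above background in wild type, at 6.71 and 6.85, and below it in knockout, at 6.35 and 6.46 (adjusted p = 0.113). These values of Cyp2w1 did not overlap.

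Over all 79 members the genotypes did not overlap for 41, with 12 higher and 29 lower in knockout. Shares were 15.2% higher and 36.7% lower, where 28.0% and 32.0% of all genes were. Of the 29 lower genes, 18 lay below background, the range in which 42.8% of all genes had lower knockout values without overlap. At an unadjusted p under 0.05, 8 members were higher and 13 lower, where 12.7% and 13.8% of all genes were.

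Partners and regulators of P450 enzymes were listed by their known roles. Of 21 listed redox partners and heme genes, 17 were tested. Por, the gene of the reductase in the endoplasmic reticulum, and Fdxr had no probe set with 1 symbol and were not analysed. Of the 17 tested, 0 rose, 1 fell and 16 did not pass, with a median of -0.01. Among all genes 1.90% passed as higher and 0.477% as lower. Alas1, the rate-limiting enzyme of heme synthesis, measured 11.82 and 11.62 in wild type against 11.01 and 10.77 in knockout and fell by 0.83 (SE 0.14, adjusted p = 0.0403), a call lost after quantile normalization was repeated (0.0519). The next smallest p were those of Ppox, Pgrmc2 and Hmox2, with differences of 0.40, -0.35 and -0.28 without overlap, and none passed. The electron carrier genes Cyb5a and Fdx1 differed by -0.01 and -0.13 with overlapping genotypes.

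Of 27 tested transcriptional regulators, 2 rose (Ahrr and Vdr), 1 fell and 24 did not pass. Over all genes 1.90% passed as higher and 0.477% as lower. Cebpa, a transcription factor of fat and liver cells, measured 11.31 in both wild type mice against 10.59 and 10.15 in knockout and fell by 0.94 (adjusted p = 0.0428), a call lost after quantile normalization was repeated (0.0532). Nr1i3 and Nr1i2 encode the receptors CAR and PXR, the known inducers of Cyp2b10 in liver. Their values, 5.67 to 5.96 and 5.98 to 6.36 over the 4 mice, were below background. Dbp, a clock-controlled factor, measured 8.68 and 9.11 in wild type against 11.14 and 9.87 in knockout (adjusted p = 0.0686).

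Of 42 tested conjugation and other drug-metabolizing genes, 2 rose, 2 fell and 38 did not pass, with a median of 0.14. Among all genes 1.90% passed as higher and 0.477% as lower. Nqo1, a quinone reductase, measured 9.45 and 9.67 in wild type against 10.46 and 10.86 in knockout and rose by 1.10 (adjusted p = 0.0353). Slco1a4, an anion transporter, measured 5.24 and 5.81 in wild type against 6.51 and 6.55 in knockout, all below background, and passed as higher (adjusted p = 0.0499). Ephx2, which hydrolyses the fatty acid epoxides that P450 enzymes make, measured 11.47 and 11.59 in wild type against 10.76 and 10.37 in knockout and fell by 0.97 (adjusted p = 0.0386). Sult1e1, which sulfates estrogens, measured 7.08 and 7.28 in wild type against 5.71 and 5.82, below background, in knockout, at least 1.52-fold lower (adjusted p = 0.0147). The calls of Nqo1 and Slco1a4 were lost after quantile normalization was repeated (0.0532) and with array weights (0.0509), in that order, and that of Slco1a4 also with every probe set on its own (0.0562). As for the P450 genes, no call in these lists held without wild type replicate 1 or without wild type replicate 2, where 0 genes passed.

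Of 6 P450 enzyme genes outside the symbol rule, Ptgis, the prostacyclin synthase, measured 8.36 and 8.60 in wild type against 9.53 and 9.35 in knockout. It rose 1.95-fold (SE 0.14, adjusted p = 0.0319), a call lost after quantile normalization was repeated (0.0515). The other 5 did not pass, and of all genes 1.90% passed as higher. Tbxas1, the thromboxane synthase, differed by -0.13 and Cyp51, of cholesterol synthesis, by 0.03. The retinoic acid hydroxylase genes Cyp26a1, Cyp26b1 and Cyp26c1 differed by -0.22, -0.03 and -0.28.

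Of the other marker lists, 1 of 11 smooth muscle markers, Myocd, rose (limma adjusted p = 0.0208) and 2 of 11 lymphocyte markers, the immunoglobulin genes Igha and Ighm, fell. Over all genes 1.90% passed as higher and 0.477% as lower. Values without overlap were higher in 9 and lower in 1 of the smooth muscle markers, and higher in 0 and lower in 9 of the lymphocyte markers. Of all genes 28.0% were higher and 32.0% lower without overlap. At an unadjusted limma p under 0.05, 5 smooth muscle markers were higher and 7 lymphocyte markers lower. The call of Ighm was lost with the mean of its probe sets (adjusted p = 0.0999), of which 1 did not pass on its own (0.234). None of the 10 endothelial, 10 macrophage, 14 hepatocyte, 17 kidney tubule and 7 male accessory gland markers passed limma. An unadjusted p under 0.05 was found in 3, 0, 4, 1 and 1 of them, all lower except the kidney tubule marker. At that level 12.7% of all genes were higher and 13.8% lower.

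**Figure D5:**
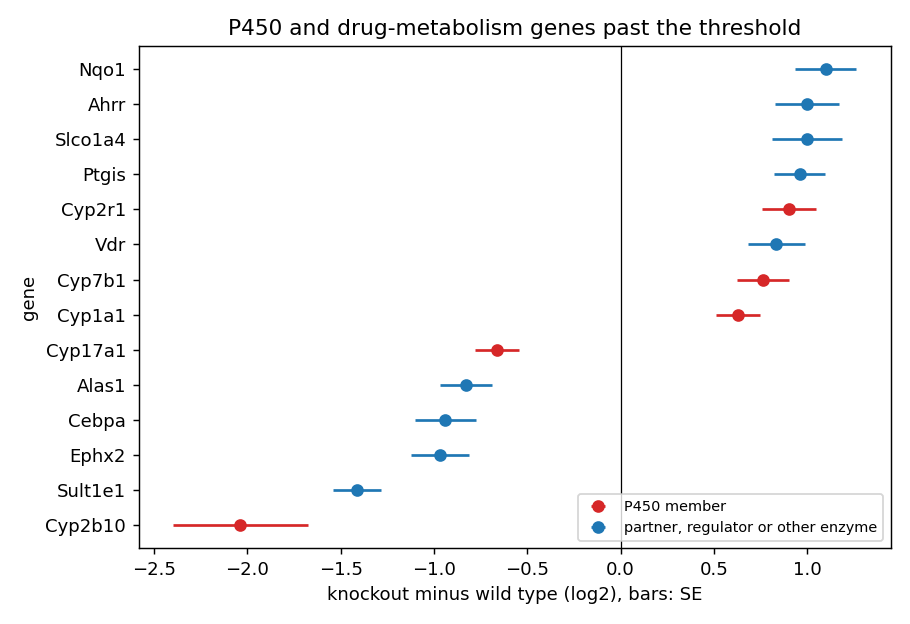
Knockout minus wild type (log2, horizontal axis, bars are the moderated SE) for the P450 members that passed (red) and for the partner, regulator, other drug-metabolizing and other P450 genes that passed (blue). Cyp2b10 is at -2.04 and Sult1e1 at -1.41 on the lower side, and Nqo1 at 1.10 on the higher side.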

How the data were processed

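The authors deposited log2 expression values, 1 for each probe set on each array. Per the submitters' processing notes RMA was used, with R 2.15.0 and limma 3.12.1. No genome build is stated in the labels. The platform annotation gave 1 symbol to 20728 of 23309 probe sets, several to 1174 and none to 1407; 20685 matched the RefSeq gene table. The 7 probe sets with several symbols that include a P450 gene were left out. Of several probe sets of a gene the brightest was used. The genotypes were contrasted in limma 3.58.1 under R 4.3.3 with lmFit and eBayes, Benjamini-Hochberg adjustment over 19296 genes and a threshold of 0.05, and checked on simulated data. SE is moderated. No counting depth exists; 2 mice per genotype limit precision. The members and lists were chosen with earlier results of these data known. Named genes were drawn from those past the threshold, the 15 highest-reading members, and the 12 largest falls and 12 largest rises above background without overlap. They were also drawn from the 4 smallest p of each family, members of sterol, steroid and vitamin D metabolism and paralogs of called genes. In each list they were drawn from called genes and the 4 smallest p. Not every gene that this rule covers is named. Cyb5a, Fdx1, Nr1i2, Nr1i3, Ahr, Dbp, Kap, Hsd3b1 and Alb were chosen after their values were seen. A bound sets the brighter mean against values raised, where dimmer, to background. Alternatives were other normalization, centring, filters, probe set rules, variance models, thresholds, background levels, a replicate block and leaving out each mouse. Comparison of proteins was not run.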

Additional observations from a re-analysis of the deposited data

How the results depend on the processing

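All genes are given as higher then lower, and P450 genes likewise, against 367 and 92, and 3 and 2. Counts were 1164 and 758, and 6 and 4, with the replicate block. They were 155 and 49, and 0 and 0, with a further quantile normalization. With no pooling of the variance all 4 were 0. With a threshold of 0.1 they were 1317 and 982, and 6 and 7, and with 0.01 they were 1 and 1, and 0 and 0. Robust eBayes gave 655 and 247 with 1 P450 gene lower, a filter on dim genes 147 genes lower with 1 P450 gene lower, centring on medians 317 genes lower with 1 P450 gene higher, and every probe set on its own 57 lower, with 1 P450 gene higher and 1 lower. Leaving out 1 mouse at a time gave 0 to 1115 and 0 to 629 genes, and 0 to 10 and 0 to 7 P450 genes; a lone mouse is there assumed to vary like the other group. In the same fits signs reversed within the ranges of -0.17 to 0.11 for Cyp2j6, -0.66 to 1.01 for Cyp4b1, -0.17 to 0.070 for Cyp27a1 and -0.58 to 0.19 for Cyp2f2. With the 99th percentile as background 19 P450 genes were above it. The cause of these shifts was not tested. The replicate numbers name the mice only: deviations of same-numbered mice correlated at -0.03 over genes, with 2 pairs. Counting symbols with a last letter as members, array weights, an intensity trend and the mean of probe sets left the P450 counts within 1.5 times. Signal near background limits the 49 dim P450 genes.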
